A study of Rattus norvegicus with 4 samples.

Results

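The 41 genes described here encode the rat proteins of mismatch repair, base excision and single-strand break repair, nucleotide excision repair and DNA end joining. They were taken by gene symbol from a table of 16290 genes. Of the 41 symbols, 40 had a row and 1, Ercc4, is not analysed here. The sequenced RNA came from rat heart muscle cells of stage P3 (postnatal day 3), cultured with horse serum. The cells received an adenovirus vector encoding Pdk3 (2 libraries, Pdk3 1 and Pdk3 2) or a mock control (2 libraries, Mock 1 and Mock 2). Pdk3 encodes a pyruvate dehydrogenase kinase, which restrains the entry of pyruvate into the mitochondrial citric acid cycle. The labels name no promoter, dose or time for the vector, and do not say whether the libraries of a group came from separate cultures. The p-values therefore speak only to how far these libraries vary, and that variation may be technical.

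Mismatch repair corrects base pairing errors left behind by the replication fork. MutS dimers that contain Msh6 or Msh3 find the error, MutL dimers that contain Pms2, Pms1 or Mlh3 follow, and the new strand is removed and sealed with the sliding clamp, Fen1 and Lig1 at hand. Base excision repair begins with a DNA glycosylase that removes a damaged base, after which an AP endonuclease cuts the backbone and Polb, Xrcc1 and a ligase fill and close the gap. Nucleotide excision repair removes bulky lesions such as those of ultraviolet light, with or without stalled transcription as the signal. End joining ligates broken ends through the Ku dimer of Xrcc6 and Xrcc5, the kinase encoded by Prkdc, and the ligase Lig4 with Xrcc4 and Nhej1. In textbook accounts mismatch repair, Fen1, Lig1 and the uracil glycosylase Ung work beside the replication fork, whereas nucleotide excision and end joining also serve cells that do not divide.

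Of the 8 replication-coupled repair genes (5 of mismatch repair, with Fen1, Lig1 and Ung), 6 rose in the Pdk3 libraries, 0 fell and 2, Pms2 and Mlh3, did not pass the test, with a median log2 fold change of 0.487. Of the 16 measured genes of nucleotide excision and end joining, 2 rose and 1 fell, with a median of -0.03. The 16 base excision and single-strand break genes split, with 4 higher, 2 lower and a median of 0.063. A gene was counted as risen or fallen when its adjusted p lay under 0.05 in limma, a linear model fitted to log2(value + 1) over the 12838 genes with a normalised count of at least 10 in at least 2 libraries. In the same fit 11.7% of all genes were higher, 11.3% were lower, and the median log2 fold change was -0.007. Over the 40 repair genes the counts were 12 higher and 3 lower. Neil3 had met the minimum through the Pdk3 libraries alone, and without it 11 of 39 were higher. Markers of cycling cells (Mki67, Top2a, Ccnb1, Ccna2, Mcm5 and Cdk1) moved with the replication-coupled repair genes, 6 of 6 higher, with sums of 4020 and 4268 in the Pdk3 libraries and 2108 and 2128 in the mock libraries. Their part in the repair gene results was not tested, and in bulk RNA fewer cells of a type and less RNA per cell cannot be told apart.

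**Figure D1:**
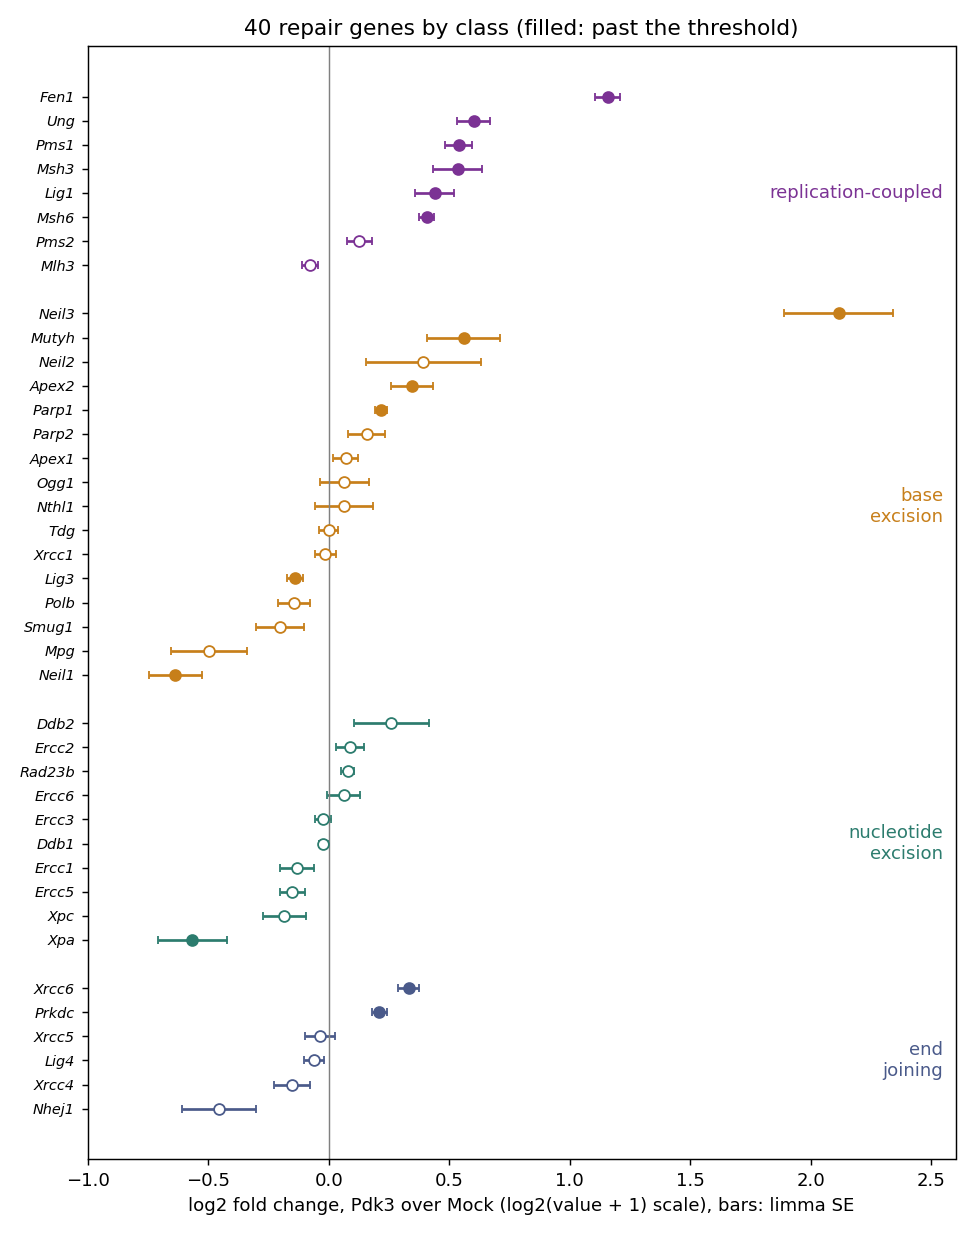
Log2 fold change of each of the 40 measured repair genes, Pdk3 over Mock, on the log2(value + 1) scale, grouped by repair class, with bars for the limma standard error. Filled points passed the threshold; 6 of 8 replication-coupled genes are filled and lie between 0.41 and 1.16, whereas most nucleotide excision and end-joining genes are open and close to 0.

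The promoters printed are those of the 4 genes that rose and held a match to the letters searched, so the matches chose them. The risen genes Msh3 (also replication-coupled), Mutyh, Parp1 and Xrcc6 held no match and are not printed. The windows run from 250 bases before to 50 bases after the RefSeq gene start (build GRCr8), are written 5′ to 3′ along the gene, and show in capitals the letters that match the binding sequence of E2F, a family of transcription factors known for S-phase genes. They come from chr1:216274347-216274646 (minus strand) for Fen1, chr1:83242920-83243219 (plus strand) for Lig1, chr6:12333456-12333755 (minus strand) for Msh6 and chr12:48153996-48154295 (minus strand) for Ung. Strands are those of GRCr8, and Msh6 lies on the plus strand in rn6.
Fen1: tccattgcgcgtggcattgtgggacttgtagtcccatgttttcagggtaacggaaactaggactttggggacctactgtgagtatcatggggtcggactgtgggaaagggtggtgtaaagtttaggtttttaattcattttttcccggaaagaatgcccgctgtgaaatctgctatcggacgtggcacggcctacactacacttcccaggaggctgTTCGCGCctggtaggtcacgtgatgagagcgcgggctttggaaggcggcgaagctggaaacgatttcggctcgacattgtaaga
Lig1: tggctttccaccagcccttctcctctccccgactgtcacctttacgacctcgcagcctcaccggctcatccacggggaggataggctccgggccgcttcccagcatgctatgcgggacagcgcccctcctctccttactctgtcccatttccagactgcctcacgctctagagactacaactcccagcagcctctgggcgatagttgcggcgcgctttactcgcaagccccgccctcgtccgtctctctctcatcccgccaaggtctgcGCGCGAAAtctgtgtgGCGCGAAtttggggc
Msh6: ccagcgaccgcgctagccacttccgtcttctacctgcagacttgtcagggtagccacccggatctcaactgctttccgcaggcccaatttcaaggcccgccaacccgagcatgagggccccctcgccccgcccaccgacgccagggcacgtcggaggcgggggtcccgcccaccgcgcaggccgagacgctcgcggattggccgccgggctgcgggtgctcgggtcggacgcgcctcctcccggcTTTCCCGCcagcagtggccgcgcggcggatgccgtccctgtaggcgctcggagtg
Ung: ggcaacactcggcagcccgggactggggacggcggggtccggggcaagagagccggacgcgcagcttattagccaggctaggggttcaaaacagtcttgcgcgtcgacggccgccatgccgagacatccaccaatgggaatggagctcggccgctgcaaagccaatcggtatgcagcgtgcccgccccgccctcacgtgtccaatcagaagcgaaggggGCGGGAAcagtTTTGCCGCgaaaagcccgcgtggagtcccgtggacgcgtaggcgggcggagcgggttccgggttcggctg

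The search used the 8-letter forms TTTCCCGC, TTTGGCGC, TTTCGCGC and TTTGCCGC and the 7-letter forms that remain without their first T, on both strands, so that each 8-letter match contains a 7-letter one. A single promoter entry was found for 30 of the 41 genes. An 8-letter form was present in 3 of 6 replication-coupled promoters (Lig1, Msh6 and Ung), in 1 of 11 base excision promoters (Nthl1) and in 0 of 13 promoters of nucleotide excision and end joining. A 7-letter form was present in 5 of 6, 2 of 11 and 4 of 13. Among 10486 promoters of genes in the table, 3.78% held an 8-letter and 16.7% a 7-letter form. The median GC content was 64.8% in the replication-coupled promoters, 59.7% in those of nucleotide excision and end joining and 60.7% in those of all genes in the table. A 7-letter form stood in 4 of the 8 promoters of genes that rose and in 7 of the 22 promoters of the other members. Mlh3, with a 7-letter match 63 bases before its start, did not pass the threshold, and the risen genes Msh3, Mutyh, Parp1 and Xrcc6 had no match in this window. The cell-cycle letters TTTGAA and the letters CCAAT, searched in the same way, were in 1 and 2 of the 6 replication-coupled promoters and in 11.8% and 37.3% of promoters of genes in the table. These matches are letters in a window, and binding was not measured here.

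Both MutS genes of the set rose. Msh6, whose protein recognises single mismatches, had normalised counts of 645 and 645 in the Pdk3 libraries, against 485 and 488 in the mock libraries. Its log2 fold change was 0.41 ± 0.03 (SE, limma, adjusted p = 0.000163). Msh3, whose protein recognises larger insertion loops, had 150 and 151 in the Pdk3 libraries and 95 and 113 in the mock libraries, a log2 change of 0.53 ± 0.10 (limma, adjusted p = 0.00938). In both genes the Pdk3 libraries lay above the mock libraries without overlap. Msh3 lies on chromosome 2 at 21790044 to 21931720 (minus strand, rn6). Msh6 (chromosome 6, 11644578 to 11662499) overlaps Fbxo11 on the opposite strand over 144 bases. Fbxo11 had 435 and 419 in the Pdk3 libraries and 420 and 428 in the mock libraries. The library kit keeps the strand, but the strand setting of the counting is not given in the sources used here, so reads of such overlaps cannot be assigned with certainty. Of the 40 genes, 7 overlap an annotated gene on the opposite strand, among them Msh6, Xpa, Lig3, Ercc1, Ercc2 and Ogg1.

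The MutL genes of the set did not move together. Pms1 (chromosome 9, 53120656 to 53206516), which encodes a MutL partner of less defined function, had 341 and 318 in the Pdk3 libraries, against 221 and 232 in the mock libraries. Its mean was 329.5 ± 16.3 with Pdk3 and 226.5 ± 7.8 with mock (SD, n = 2 each), and its log2 fold change was 0.54 ± 0.06 (limma, adjusted p = 0.000681). Pms2, the endonuclease subunit of the main MutL dimer, had 303 and 321 in the Pdk3 libraries and 290 and 281 in the mock libraries, a log2 fold change of 0.13 that did not pass (limma, adjusted p = 0.119). Mlh3, which is best known for meiotic crossing over, had 491 and 482 in the Pdk3 libraries and 508 and 519 in the mock libraries (log2 fold change -0.08, limma, adjusted p = 0.155). Mlh3 was the single replication-coupled gene with both Pdk3 libraries below both mock libraries.

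Fen1 showed the largest change of the replication-coupled genes. The flap endonuclease it encodes (chromosome 1, 226251518 to 226255886, minus strand) trims Okazaki fragments and long-patch repair intermediates. Its normalised counts were 402 and 414 in the Pdk3 libraries, against 186 and 179 in the mock libraries. The means of 408.0 ± 8.5 with Pdk3 and 182.5 ± 4.9 with mock (SD, n = 2 each) differed 2.24-fold, with a log2 change of 1.16 ± 0.05 (limma, adjusted p = 1.65e-05). The gene ranked 26 by p among the 12838 tested. Lig1, the ligase that seals Okazaki fragments, had 150 and 145 in the Pdk3 libraries and 110 and 107 in the mock libraries, a smaller change of 0.44 ± 0.08 (limma, adjusted p = 0.00789). Ung, which removes uracil from DNA, had 282 and 306 in the Pdk3 libraries and 202 and 185 in the mock libraries, a change of 0.60 ± 0.07 (limma, adjusted p = 0.000984). All 3 genes had Pdk3 libraries above mock libraries.

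**Figure D2:**
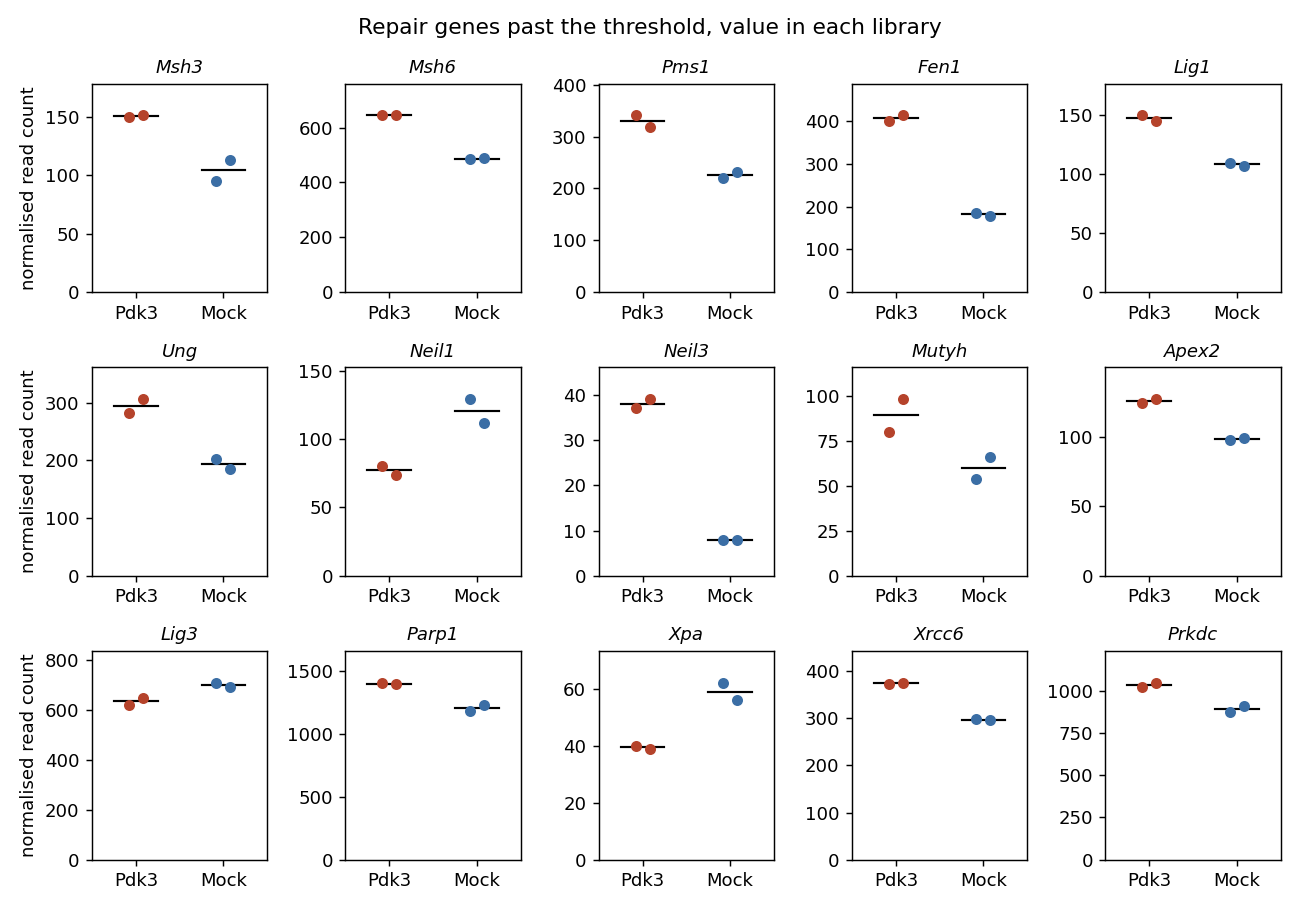
Normalised read count of the 15 repair genes past the threshold in each library, with Pdk3 (red) left of Mock (blue), a bar at the mean of 2 libraries and axes that start at 0. In 12 panels the values show Pdk3 above Mock, and Neil1, Lig3 and Xpa show it below.

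Among the DNA glycosylases, members of the same family moved in opposite directions. Neil3, a glycosylase for oxidised bases known from dividing cells, had 37 and 39 in the Pdk3 libraries, against 8 and 8 in the mock libraries. This 4.75-fold ratio of means rests on low counts, and the log2 fold change was 2.12 ± 0.22 (limma, adjusted p = 0.000671). Neil1, its relative for oxidised pyrimidines, fell, with 80 and 74 in the Pdk3 libraries and 129 and 112 in the mock libraries, a log2 change of -0.64 ± 0.11 (limma, adjusted p = 0.00613). Neil2 had 27 and 22 in the Pdk3 libraries, against 16 and 21 in the mock libraries, which did not pass (adjusted p = 0.283). Among the 40 genes the deepest fall by fold was that of Neil1 and the highest rise that of Neil3. Neil3, however, reached the minimum count through the Pdk3 libraries alone, so its p is not read as support. Without Neil3 the highest rise was that of Fen1, at 1.16 on the log2 scale.

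Mutyh, which removes adenine paired with oxidised guanine, had 80 and 98 in the Pdk3 libraries and 54 and 66 in the mock libraries (log2 fold change 0.56 ± 0.15, limma, adjusted p = 0.0347). The other glycosylases did not pass. Ogg1, which removes oxidised guanine itself, had a log2 fold change of 0.06, Nthl1 of 0.06 and Tdg, which acts on thymine and uracil paired with guanine, of 0.00. Smug1, a second uracil glycosylase, had 123 and 108 in the Pdk3 libraries and 139 and 127 in the mock libraries (log2 fold change -0.20, limma, adjusted p = 0.183). Mpg, which removes alkylated purines, had 32 and 34 in the Pdk3 libraries and 49 and 45 in the mock libraries. Its log2 fold change of -0.50 did not pass (limma, adjusted p = 0.0585).

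Of the AP endonucleases, Apex1, the main enzyme, had 348 and 350 in the Pdk3 libraries and 319 and 346 in the mock libraries, without passing (limma, adjusted p = 0.368). Apex2, which interacts with the sliding clamp, had 124 and 127 in the Pdk3 libraries and 98 and 99 in the mock libraries, a log2 change of 0.35 ± 0.09 (limma, adjusted p = 0.0257). A stricter p, called counting-floored here, took for each gene whichever was greater, limma's value or that of an exact binomial test on the group totals of estimated reads. By it the call ended (adjusted p = 0.0658). With the libraries scaled to level ribosomal protein genes it also ended (adjusted p = 0.0562).

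Changes in the single-strand break genes were small. Parp1, the break sensor (chromosome 13, 98857177 to 98889716), had 1404 and 1393 in the Pdk3 libraries and 1182 and 1226 in the mock libraries, a log2 change of 0.22 ± 0.02 (limma, adjusted p = 0.00102). Parp2, its smaller relative, had 223 and 227 in the Pdk3 libraries and 188 and 216 in the mock libraries (log2 fold change 0.16, limma, adjusted p = 0.181). Lig3, the ligase that works with Xrcc1 and in mitochondria, had 620 and 647 in the Pdk3 libraries and 706 and 689 in the mock libraries. Its log2 fold change of -0.14 ± 0.03 passed (limma, adjusted p = 0.0242) but not with the counting-floored p (adjusted p = 0.0761), and Lig3 overlaps Rffl on the opposite strand over 435 bases. The scaffold gene Xrcc1 and the gap-filling polymerase gene Polb had log2 fold changes of -0.01 and -0.14, with adjusted p of 0.851 and 0.163 in limma.

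In nucleotide excision repair 1 of 10 measured genes passed. Xpa, which verifies the lesion (chromosome 5, 61749767 to 61792928, minus strand), had 40 and 39 in the Pdk3 libraries, against 62 and 56 in the mock libraries, a log2 change of -0.57 ± 0.14 (limma, adjusted p = 0.0272). It overlaps Ncbp1 on the opposite strand over 16715 bases, and Ncbp1, a cap-binding protein gene, had 515 and 484 in the Pdk3 libraries and 466 and 480 in the mock libraries. The damage sensors did not pass. Xpc had 221 and 241 in the Pdk3 libraries and 240 and 287 in the mock libraries, which overlap by 1 count. Ddb2, the ultraviolet damage binding subunit, had 78 and 60 in the Pdk3 libraries and 59 and 55 in the mock libraries. Its partner Ddb1, a ubiquitin ligase adaptor, was nearly level at 1789 and 1786 in the Pdk3 libraries and 1819 and 1813 in the mock libraries.

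The remaining nucleotide excision genes did not pass in limma. The helicase genes of TFIIH, Ercc2 and Ercc3, had log2 fold changes of 0.09 and -0.02. The incision nuclease genes Ercc1 and Ercc5 had -0.13 and -0.15, the transcription-coupled repair gene Ercc6 had 0.06 and Rad23b, a partner of Xpc, had 0.08. Their adjusted p in limma ran from 0.064 for Rad23b to 0.662 for Ercc3. With TMM scaling Rad23b passed (adjusted p = 0.0374), and with a minimum value of 50 Ercc5 did (adjusted p = 0.0384). Scaled to level ribosomal protein genes, Ercc1, Ercc3 and Ercc5 passed as lower (adjusted p = 0.0399, 0.0411 and 0.00287).

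Of the 6 end-joining genes, 2 rose. Xrcc6, which encodes the smaller Ku subunit (chromosome 7, 123259761 to 123280612), had 374 and 375 in the Pdk3 libraries and 298 and 297 in the mock libraries, a log2 change of 0.33 ± 0.04 (limma, adjusted p = 0.00168). Prkdc, the DNA-dependent protein kinase, had 1020 and 1046 in the Pdk3 libraries and 874 and 913 in the mock libraries, a change of 0.21 ± 0.03 (limma, adjusted p = 0.00287). Xrcc5, the other Ku subunit, had 243 and 251 in the Pdk3 libraries and 264 and 243 in the mock libraries, and the groups overlapped (adjusted p = 0.705). The ligation genes did not pass. Lig4 had 380 and 399 in the Pdk3 libraries and 405 and 407 in the mock libraries (limma, adjusted p = 0.351). Its partner Xrcc4 had 151 and 165 in the Pdk3 libraries and 174 and 177 in the mock libraries (limma, adjusted p = 0.184). Nhej1 had 35 and 33 in the Pdk3 libraries and 47 and 47 in the mock libraries (limma, adjusted p = 0.0699). In all 3 the Pdk3 libraries lay below the mock libraries.

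Ratios between related genes were formed within each library, so that scaling between libraries cancels. A ratio of counts is not a ratio of molecules, because gene lengths differ, and only its change between groups is read. Fen1 over Lig1 was 2.68 and 2.86 in the Pdk3 libraries and 1.69 and 1.67 in the mock libraries. Lig1 over Lig3 was 0.242 and 0.224 with Pdk3 and 0.156 and 0.155 with mock. The ligase ratio moved toward the replicative enzyme in both Pdk3 libraries. Ung over Smug1 was 2.29 and 2.83 with Pdk3 and 1.45 and 1.46 with mock. Xrcc6 over Xrcc5, the Ku subunits, was 1.54 and 1.49 with Pdk3 and 1.13 and 1.22 with mock. Pms1 over Mlh3 was 0.695 and 0.66 with Pdk3 and 0.435 and 0.447 with mock. Msh6 over Msh3 was 4.30 and 4.27 with Pdk3 and 5.11 and 4.32 with mock, where 1 mock library lay next to the Pdk3 libraries. Of 11 ratios compared, 10 did not overlap between groups. The pairs were chosen with earlier results known, and no share over other gene pairs was computed, so this count is a description only. Among single genes tested, 29.9% had both Pdk3 libraries above both mock libraries and 31.1% had both below. With 2 libraries against 2 a two-sided exact permutation test cannot go below 0.333. Each of the 10 ratios without overlap reached that value (0.366 adjusted over the ratios).

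**Figure D3:**
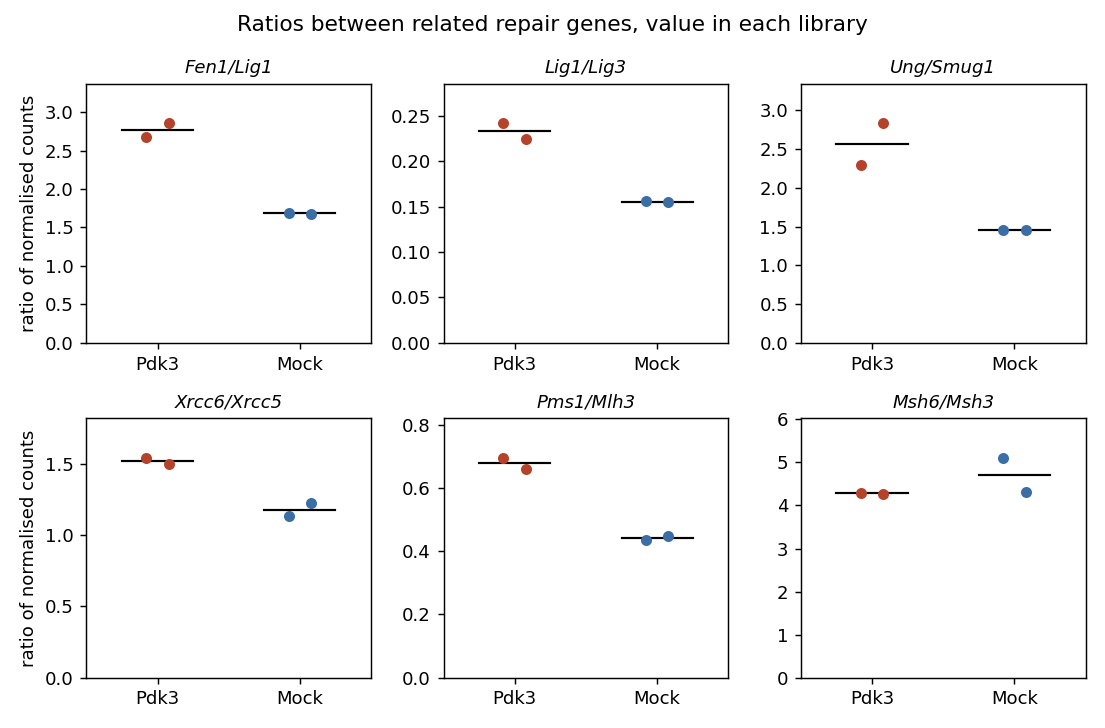
Ratio of normalised counts of 6 gene pairs in each library, Pdk3 (red) left of Mock (blue), with a bar at the mean and axes that start at 0. The Fen1/Lig1 ratio is 2.68 and 2.86 with Pdk3 and 1.69 and 1.67 with Mock; the Msh6/Msh3 ratio is close in the groups.

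The classes were also read by library. Each gene's log2 level was centred on its mean over the 4 libraries. The median centred level of the replication-coupled genes was 0.243 and 0.211 in the Pdk3 libraries and -0.222 and -0.216 in the mock libraries. For nucleotide excision and end joining it was -0.027 and -0.004 in the Pdk3 libraries, against 0.02 and 0.018 in the mock libraries. The gap between the 2 classes in median centred level had an SD between replicate libraries of 0.0278. The median log2 fold change of the replication-coupled genes exceeded that of nucleotide excision and end joining by 0.516. The SD is of the centred levels and is not an error of this 0.516, which ran from 0.464 to 0.547 with any 1 library left out. Genes are not replicates of a condition, and this difference has no test.

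Over the 40 genes, 19 had both Pdk3 libraries above both mock libraries (18 of 39 without Neil3) and 13 had both below. Over all genes tested these shares were 29.9% and 31.1%. Among the replication-coupled genes 7 of 8 lay above and 1 below, and among nucleotide excision and end joining 5 of 16 lay above and 7 below. With the counting-floored p, 11 of the 40 genes were higher (10 of 39 without Neil3) and 2 lower, against 8.37% and 7.48% of all genes. The replication-coupled count was again 6. With no filter on low values, 7 of the 40 were higher (4 of them replication-coupled) and 0 lower. In that setting 3.43% of all genes were higher, and 418 of 16290 were lower. Scaled so that ribosomal protein genes were level, 11 were higher and 15 lower, against 7.29% and 28.0% of all genes. In that scaling 6 replication-coupled genes were higher and 1, Mlh3, lower, and of nucleotide excision and end joining 2 were higher and 9 lower. The genes that passed as lower there but not before were Mlh3, Mpg, Smug1, Polb, Xpc, Ercc1, Ercc3, Ercc5, Ddb1, Xrcc4, Lig4 and Nhej1. The median of base excision genes turned to -0.023 there. Without the filter the calls of Msh3, Ung, Neil1, Mutyh, Apex2, Lig3, Xpa and Prkdc ended (limma, adjusted p 0.0535 to 0.172). Without the intensity trend in limma those of Msh3, Neil1, Mutyh, Lig3, Parp1 and Prkdc ended (adjusted p 0.0538 to 0.151), and Mpg and Nhej1 passed as lower. With any 1 of the 4 libraries left out no gene of the table passed, while 17 to 18 of the 40 repair genes had an unadjusted p under 0.05 in limma.

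Other repair genes were read from lists of their own. Of 14 replication factors that serve mismatch repair, 12 rose and 0 fell, with a median log2 fold change of 0.723. Pcna, the sliding clamp that Fen1, Lig1, Msh6 and Ung bind, had 450 and 436 in the Pdk3 libraries and 239 and 250 in the mock libraries (0.86 ± 0.05, limma, adjusted p = 3.65e-05). Pold1, the catalytic subunit of polymerase delta, rose by 1.14, its accessory subunit gene Pold3 by 0.73 and the clamp loader gene Rfc5 by 0.91 on the log2 scale. Exo1, the exonuclease of mismatch repair, named here for its value, had 130 and 139 in the Pdk3 libraries and 50 and 38 in the mock libraries (a 3.06-fold ratio of means, limma, adjusted p = 0.000345). Pold4 and Rpa3 did not pass, with log2 fold changes of -0.33 and 0.32.

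The other excision and end-joining genes mostly did not pass. Of 16 further nucleotide excision genes 1 rose and 2 fell, with a median of -0.009. Ercc8, a transcription-coupled repair gene, rose by 0.27, while Cul4b, a ubiquitin ligase scaffold, and Cetn2, a partner of Xpc, had log2 fold changes of -0.18 each, and neither passed with the counting-floored p (adjusted p = 0.0514 for Cul4b, 0.202 for Cetn2). The genes with the highest counts that did not pass, Cul4a and Gtf2h1, had -0.07 and 0.12. Of 8 tested base excision and strand break genes 0 rose and 2 fell, with a median of -0.082. Among these Aplf, a gene for a break repair factor, fell by 0.45 on the log2 scale (limma, adjusted p = 0.0234), and with the counting-floored p 1 of the 2 falls passed. The members with the highest counts that did not pass, Parp3 and Parg, had -0.06 and -0.10.

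Of 10 further end-joining genes tested, 2 rose and 2 fell, with a median of -0.021. Polq, the polymerase of microhomology-mediated joining, had 188 and 199 in the Pdk3 libraries, against 57 and 66 in the mock libraries, a log2 change of 1.64 ± 0.10 (limma, adjusted p = 6.19e-05). Rif1, which protects broken ends and also times replication, had 689 and 720 in the Pdk3 libraries and 443 and 452 in the mock libraries (0.65 ± 0.04, limma, adjusted p = 3.65e-05). Shld2 and the gap-filling polymerase gene Poll had log2 fold changes of -0.26 and -0.18 that passed in limma but not with the counting-floored p (adjusted p = 0.0917 for Shld2, 0.121 for Poll). Tp53bp1 and Paxx did not pass, at -0.01 and -0.03. None of the 3 direct reversal genes passed in limma, and those with the highest counts, Alkbh3 and Mgmt, had log2 fold changes of 0.13 and 0.05.

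The KEGG pathway terms deposited with the table gave lists that were not drawn up here. Leaving out the 41 genes, the term for mismatch repair had 14 of 17 genes higher and 0 lower, with a median of 0.717. The base excision term had 7 of 12 higher and 1 lower, the nucleotide excision term 15 of 31 higher and 2 lower, and the end-joining term 1 of 5 higher and 1 lower. The medians of these 3 were 0.497, 0.248 and -0.083. The mismatch and nucleotide excision terms share genes of replication such as Pcna and Rfc5, and the base excision term also holds Pcna. Neither is among the 5 end-joining genes.

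**Figure D4:**
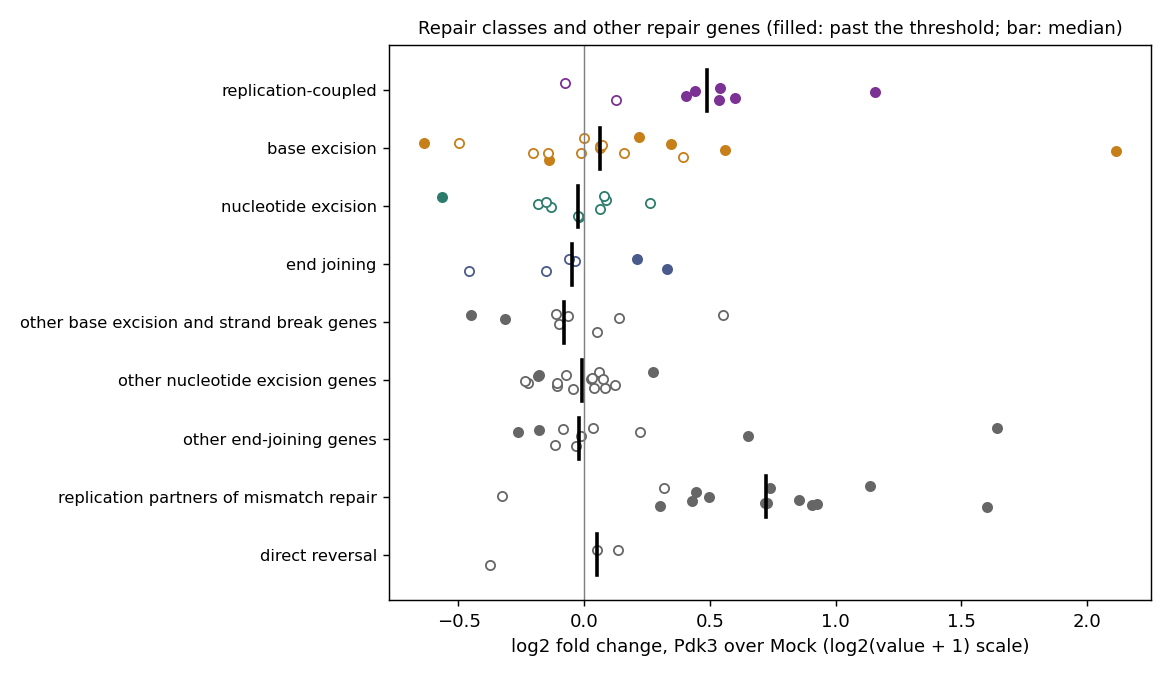
Log2 fold change, Pdk3 over Mock, of each gene in the 4 repair classes (coloured) and in the 5 lists of other repair genes (grey), with filled points past the threshold and a black bar at the median. The replication-coupled class (median 0.487) and the replication partners of mismatch repair (median 0.723) lie to the right, and the other medians lie between -0.09 and 0.07.

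Normalised counts summed to 4448199 to 4476649 per library, which corresponds to 4140000 to 4707000 reads in genes. Pdk3 itself had 1218 and 1177 in the Pdk3 libraries and 396 and 411 in the mock libraries (log2 fold change 1.57 ± 0.03, limma, adjusted p = 1.47e-06), without separation of vector and cellular reads. Cardiomyocyte markers were abundant, with 8 of 9 measured and a summed level of 19882 to 20171 in the Pdk3 libraries and 19438 to 19624 in the mock libraries. Of these 8, 3 were higher (Myh6, Myh7 and Actn2) and 1 lower (Ryr2), also with the counting-floored p. Macrophage markers were lower in 4 of 6 (sums 747 to 759 with Pdk3 and 925 to 962 with mock), endothelial in 2 of 5 (891 to 916 with Pdk3 and 950 to 995 with mock) and fibroblast in 1 of 6 (3743 to 3875 with Pdk3 and 3881 to 3940 with mock), and smooth muscle markers were higher in 3 of 4 (3187 to 3216 with Pdk3 and 2750 to 2802 with mock). No measured marker was listed at 0 in any library. The part of these in the repair gene results was not tested. Between replicate libraries of both groups the squared differences averaged 0.601 (Pdk3) and 0.599 (mock) of what counting alone would give, so the limma errors of single genes can lie below counting error, and the counting-floored values stand beside them for that reason. Each library was counted as 1 replicate.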

How the data were processed

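The authors deposited 1 table of normalised counts, 1 column per library, used here as a score because the values are read counts that were scaled between libraries and rounded, not raw counts. Per the submitters' processing notes, FastQC, Trimmomatic 0.39, STAR 2.6.1d, featureCounts 1.6.5, DESeq2 1.26.0 and build rn6 were used, while the sources used here give no settings, duplicate handling or strand option. Rounding leaves steps in the values, from which scaling factors of 0.9247 and 0.9628 (Pdk3 1 and 2) and 1.0255 and 1.0567 (Mock 1 and 2) were estimated to return approximate reads.

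All 12838 genes that reached a value of 10 in 2 or more libraries were fitted on log2(value + 1) with limma 3.58.1 in R 4.3.3 (intensity trend, group as the single term, 2 residual degrees of freedom), two-sided, with Benjamini-Hochberg adjustment over all genes and a threshold of 0.05. Fold changes on this scale understate low genes, and PCR duplicates mean that reads may not be separate molecules. All 41 genes are named, and of each list of other repair genes up to 4 that passed (smallest p) and up to 2 of highest mean that did not. Some genes this rule names are not reported here. The members, lists, ratios, motifs and pathway terms were chosen with earlier results of these data known. Promoters are from RefSeq (GRCr8). As alternatives the fit was repeated with a replicate block, without each library, with 2 other scalings (TMM and ribosomal protein genes), other filters and pseudocounts, no intensity trend and a p no smaller than counting noise allows.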

Additional observations from a re-analysis of the deposited data

How the results depend on the processing

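With any 1 library left out, limma had 1 residual degree of freedom and called 0 of 12838 genes and 0 repair genes in either direction, with 2916 to 3347 of all genes and 17 to 18 of the 40 repair genes at an unadjusted p under 0.05. The difference between class medians then ran from 0.464 to 0.547, and the fold change of each of the 15 called genes kept its sign.

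With no filter on low values 976 genes were called (against 2945), 558 of them higher and 418 lower. There 7 repair genes were higher and 0 lower. Without an intensity trend 851 genes were called. Scaled to ribosomal protein genes, which lowers the median gene to -0.093, 4531 genes were called and 15 repair genes were lower. For these settings the cause was not tested. The replicate numbers are shared between groups, but the labels do not say what they mark, and deviations of same-numbered libraries correlated at 0.038 across genes. With the replicate block 12 repair genes were higher and 3 lower and 2672 genes were called. With pseudocounts of 0.5 and 8 the calls of all 40 genes stayed as they were, and with the block they did too. Precision of genes under a value of 50, such as Neil3, Neil2 and Nhej1, is limited by depth.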
